A study of Mus musculus with 6 samples.

Results

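The genes described here are the clustered histone genes, the protein-coding genes whose symbols start with Hist1h, Hist2h, Hist3h or Hist4h in the GENCODE M21 annotation of the mouse genome. The rule finds 67 genes, of which 65 have a row in the deposited table of 48709 genes, namely 6 H1, 18 H2A, 16 H2B, 12 H3 and 13 H4 genes. Hist1h2bm and Hist1h2bh have no row and were not analysed here. The RNA came from ovaries of CD1 mouse embryos at 13.5 dpc (days post coitum), and each library was made from its own pool of gonads from a pair of dams. In the control group (3 libraries) the dams received the ethanol diluent by gavage. In the APAP+IBU group (3 libraries) they received acetaminophen (APAP, 30 mg/kg per day) and ibuprofen (IBU, 15 mg/kg per day) over the period of sex determination. No group carried a transgene or a deletion. Whole gonads were sequenced, so fewer cells of a type and less RNA per cell cannot be told apart in any value below.

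Each nucleosome holds DNA wound on the core histones H2A, H2B, H3 and H4, and the linker histone H1 binds outside it. Clustered histone genes supply most of these proteins while DNA is copied, and their messenger RNAs usually end after a conserved stem-loop instead of a poly(A) tail. The stem-loop is bound by SLBP and cut at a downstream site with the help of the U7 small nuclear RNA. Replacement histones come from genes elsewhere in the genome. Some of these genes, such as H3f3a and H3f3b, carry introns and make polyadenylated messages throughout the cell cycle. The libraries were prepared by oligo-dT selection, which retains RNA with a poly(A) tail, so a message that ends at its stem-loop is largely lost. Some clustered histone genes are also known to make polyadenylated messages from a poly(A) signal beyond the stem-loop, chiefly in cells that have left the cell cycle.

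The stem-loop was searched, on the sense strand of the annotated transcripts, as the stem arms GGCNCT and AGNGCC on either side of the loop TTTC, with N for any base. It was present in 31 of the 65 genes (47.7%) and in 35 of 21866 protein-coding genes overall (0.16%). The only ones of these 35 that the gene rule leaves out were H2bfm and Trim17. An exon of Trim17 overlaps Hist3h2a on the same strand, and whether both share the same stem-loop site was not examined. Another 10 of the 65 held the stem-loop at 1 mismatch. A further 15 had a gene model that ended within 30 bases of the stop codon, none of them with the motif. The following stem-loops are shown because they belong to the most counted genes with this motif among H1, H2A and H2B and to 2 genes whose model ends or continues after the loop, with the motif in capitals (RNA sense, written as DNA, GRCm38, GENCODE M21 transcripts).
Hist1h1c: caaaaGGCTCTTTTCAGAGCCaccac
Hist3h2a: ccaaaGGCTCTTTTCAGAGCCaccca
Hist3h2ba: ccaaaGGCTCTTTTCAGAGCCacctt
Hist1h4d: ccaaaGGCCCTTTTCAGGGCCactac
Hist1h2ag: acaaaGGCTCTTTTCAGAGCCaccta

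These windows lie at chr13:23739507-23739532 (plus strand) for Hist1h1c, chr11:58955167-58955192 (plus) for Hist3h2a, chr11:58949344-58949369 (plus) for Hist3h2ba, chr13:23581945-23581970 (plus) for Hist1h4d and chr13:22042478-22042503 (minus) for Hist1h2ag. They differ in what follows. The annotated transcript ran on for 840 bases after the stem-loop in Hist1h1c, 1643 in Hist3h2a, 169 in Hist3h2ba and 770 in Hist1h4d, but for only 23 bases in Hist1h2ag.

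A poly(A) signal (AATAAA or ATTAAA) in the last 40 bases of an annotated transcript was found in 17 of the 65 genes (26.2%), against 76.1% of all protein-coding genes. Both features, stem-loop and signal, were present in 9. The tails of the 5 most counted genes with a signal are shown because most histone reads came from them, with the signal in capitals.
Hist2h2be: tattattattAATAAAgttaccgattagtt
Hist1h1c: gtatgcttctAATAAAaagcgtttagtttt
Hist3h2a: gtatatgcccAATAAAataagagtacgtgt
Hist3h2ba: taatggtattAATAAAtttggttcaatttt
Hist1h4i: ttctgtttacATTAAAagtattctatgcta

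These lie at chr3:96223707-96223736 (plus strand), chr13:23740332-23740361 (plus), chr11:58956787-58956816 (plus), chr11:58949497-58949526 (plus) and chr13:22040637-22040666 (minus) in the order shown. Hist1h1c, Hist3h2a and Hist3h2ba thus carry the stem-loop and, further on, the signal in the same annotated exon, whereas Hist2h2be has a signal and no stem-loop and Hist1h4i has the stem-loop at 1 mismatch. A match is a description of the letters and not evidence that the site was used.

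Library totals ran from 37811968 to 48954631 counts, and 3 counts, the limit that a count of 0 allows, correspond to 0.0591 to 0.0803 CPM (counts scaled to a library of 1000000) depending on the library, for counting error only. The 16 germ cell and supporting cell markers, Dazl, Ddx4, Stra8, Foxl2 and Wnt4 among them, were all detected. The libraries also held RNA that a fetal ovary is not known for. The 16 spermatocyte and spermatid markers summed to 65.3 to 189.5 CPM in control and 28.9 to 29.2 CPM in APAP+IBU libraries. In APAP+IBU libraries Hspa2 made up 13.56 to 18.01 CPM of this sum and Spaca1 3.96 to 5.15 CPM. Both genes overlapped between the groups, with log2 fold changes of -0.30 and -0.0082. Prm1, Prm2, Tnp1 and Tnp2 had APAP+IBU means of 0.415, 0.871, 0.55 and 0.603 CPM. The exposed sum is therefore not a measure of spermatid RNA alone. The 20 liver markers summed to 213 to 605 CPM in replicates 1 and 2 of both groups. They summed to 2389 and 3824 CPM in control and APAP+IBU replicate 3. The 11 erythroid markers with a row summed to 7061 to 17246 CPM in control and 3192 to 10227 CPM in APAP+IBU libraries. With all 6 libraries, 8 of the 11 were lower and 3 higher. With replicates 1 and 2 of each group alone, 5607 of 20633 genes had an adjusted p under 0.05 (27.2%), while with all 6 libraries none of 20167 did. Main results are given for all 6 libraries and then for these 4. Because that difference in calls is the reason for showing the 4 libraries, their p-values are descriptive only.

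Clustered histone genes were sparse in every library. The 65 genes together had 1689 to 1943 counts per library, which is 37.0 to 49.8 CPM of the total without further scaling, and 10957 counts in all. H2B genes held 5207 of these, H1 genes 3045, H2A genes 1686, H4 genes 787 and H3 genes 232. No gene of H3, the core histone that carries many of the best known tail modifications, exceeded 19 counts in any library. Of the 65 genes, 36 had fewer than 10 counts in each of the 6 libraries, 14 had at most 3, and 6 (Hist1h2ao, Hist2h2aa1, Hist1h2bq, Hist1h2br, Hist2h3c1 and Hist1h4m) had none. The plot of counts by histone type shows a few genes far above the rest in H1, H2A, H2B and H4 and no such gene in H3.

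**Figure D1:**
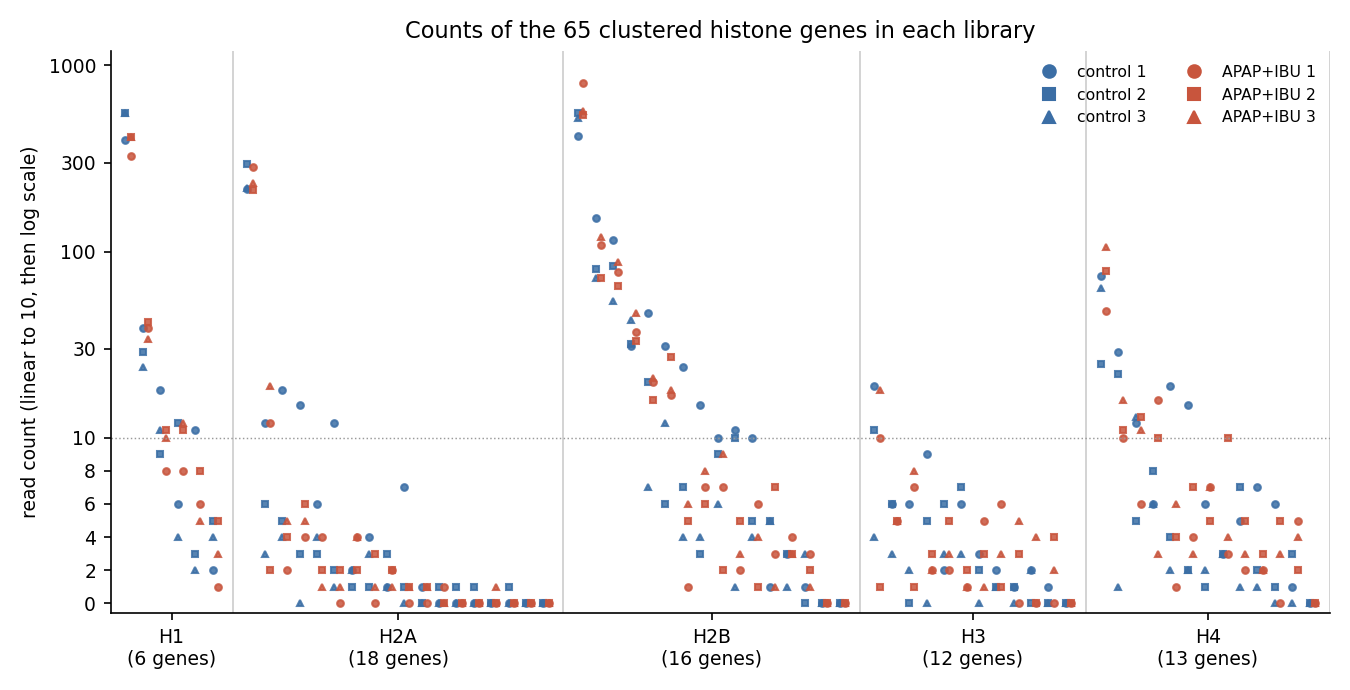
Read counts of the 65 clustered histone genes in each of the 6 libraries, grouped by histone type and ordered within a type by total count. The vertical axis is linear up to 10 counts (dotted line) and logarithmic above, blue marks are control and red marks APAP+IBU libraries, and 36 genes stay under the dotted line in every library.

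Most histone reads came from 6 genes. Hist2h2be (H2B) had 3408 counts over the 6 libraries, Hist1h1c (a somatic H1) 2663, Hist3h2a (H2A) 1467, Hist3h2ba (H2B) 605, Hist1h2bc (H2B) 485 and Hist1h4i (H4) 396. These are counts that were not divided by gene length. Together they made up 82.0 ± 7.85% of the clustered histone counts in control and 82.8 ± 1.87% in APAP+IBU libraries (SD, n = 3). Their share was 73.1% in control 1 and 81.6 to 88.0% in the other 5 libraries. Of the 6 genes, 5 have the poly(A) signal. Hist1h2bc has neither the signal nor the stem-loop in its annotated transcript, which spans chr13:23684199-23692908 in 2 exon blocks.

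Per kilobase of exon, the order changed. Hist1h1c had the highest level (6.88 CPM per kb, mean of 6 libraries), followed by Hist2h2be (5.11), Hist3h2ba (3.97), Hist3h2a (2.73), Hist1h4i (2.18) and Hist1h2bc (1.70). The median of the 20167 tested genes was 3.89 CPM per kb, so 3 clustered histone genes lay above it, and Hist1h1c, the highest, stood at the 62.0th percentile.

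The counts were then divided by the annotated 3′ ends. The 17 genes with a poly(A) signal held 9046 of the 10957 counts, and the 48 genes without it held 1911. That share was 81.8 ± 9.31% in control and 83.5 ± 1.72% in APAP+IBU libraries (SD, n = 3). Restricted to genes in which at least 20% of 50-base windows were unique among all transcripts, the median gene had a mean of 9.5 counts per library with the signal (14 genes) and 4.33 without it (32 genes). The sums therefore differed far more than the medians, since a few genes carried the signal class. Among the 31 genes with the stem-loop, the 15 whose transcript went on for more than 100 bases after it had 5382 counts. The 16 whose transcript ended within 100 bases had 360. Here too a few genes carried the sum, with 2663 counts for Hist1h1c, 1467 for Hist3h2a and 605 for Hist3h2ba. The median gene had a mean of 8.83 counts per library in the longer class and 2.42 in the shorter. These counts were not divided by length, and the shorter class includes copies with few unique windows. The signal did not by itself go with many reads, because Hist2h4, Hist1h4a and Hist1h1t have it and had 26, 17 and 20 counts. These classes were formed from annotation alone, and no test was run on them.

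The main comparison asked whether exposure changed the level of these messages. No clustered histone gene passed the test. Summed over the 65 genes, the level was 49.2, 50.4 and 38.9 CPM in controls 1, 2 and 3 and 38.3, 37.1 and 48.6 CPM in APAP+IBU 1, 2 and 3. The groups overlapped, with 46.2 ± 6.33 CPM in control and 41.3 ± 6.36 CPM in APAP+IBU (SD, n = 3), a ratio of 0.895. The ratio was 0.756 for replicates 1 and 2 alone, since control 3 was low and APAP+IBU 3 high within their groups. Summed H1 genes were at 14.2 ± 2.09 CPM in control and 10.3 ± 2.43 CPM in APAP+IBU (ratio 0.721), and summed H2B genes at 20.6 ± 3.12 and 20.7 ± 3.21 CPM (ratio 1.01). The ratio was 0.845 for H2A, 0.919 for H3 and 1.06 for H4. Without control 1 it became 1.24 for H3 and 1.48 for H4, with 0.677 for H1, 0.871 for H2A and 1.07 for H2B.

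The filter on low counts kept 15 of the 65 genes (3 H1, 2 H2A, 6 H2B, 1 H3 and 3 H4). By the quasi-likelihood test of edgeR, adjusted by the Benjamini-Hochberg method over 20167 genes, 0 of the 15 reached an adjusted p under 0.05, and the share of all tested genes was 0%. At an unadjusted p under 0.05 there were again 0 of 15, against 6.22% of all tested genes (1254 genes). DESeq2 gave 0 of 15 at an adjusted p under 0.05, against 0.952% of all tested genes, and 1 (Hist1h1c, lower) at an unadjusted p under 0.05, as were 3.52% of all tested genes. The log2 fold change was above 0 in 5 of the 15 and below 0 in 10, and its median was -0.19, beside -0.0047 over all tested genes. In none of the 15 were the 3 APAP+IBU libraries all above or all below the 3 control libraries, a pattern seen in 4.78% (above) and 5.92% (below) of tested genes. With replicates 1 and 2 alone, 18 were tested, the median was -0.70, and 0 had an adjusted p under 0.05, against 14.2% (higher) and 12.9% (lower) of tested genes. At an unadjusted p under 0.05 these 4 libraries gave 4 lower, which were Hist1h1c, Hist1h2bc, Hist1h2bl and Hist1h4d, and 0 higher, against 20% (lower) and 20.9% (higher) of all tested genes.

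Hist1h1c (ENSMUSG00000036181, chr13:23738808-23740367, plus strand, a single exon) encodes a linker histone of somatic cells. Its level was 10.4, 14.9 and 12.8 CPM in controls 1, 2 and 3 and 6.43, 9.02 and 10.8 CPM in APAP+IBU 1, 2 and 3. The groups overlapped only in that APAP+IBU 3 lay above control 1. The log2 fold change was -0.54 (edgeR, SE 0.24, 95% interval -1.10 to 0.013, adjusted p = 0.692), the smallest unadjusted p of the 15 genes. It was -0.70 with replicates 1 and 2 (edgeR, adjusted p = 0.0734), and with correction for gene length and GC content it was -0.37 with all 6 libraries (edgeR, adjusted p = 0.597) and -0.26 with these 4 (edgeR, adjusted p = 0.505). The other H1 genes tested were much lower. Hist1h1a ranged from 24 to 42 counts and Hist1h1b from 8 to 18 counts over the 6 libraries, with log2 fold changes of 0.13 and -0.56.

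Hist2h2be (ENSMUSG00000068854, chr3:96221119-96223738, plus strand) had the most reads of any clustered histone gene and encodes a core histone H2B. It was measured at 10.96, 14.8 and 12.0 CPM in controls 1, 2 and 3 and at 15.9, 11.8 and 14.8 CPM in APAP+IBU 1, 2 and 3. High and low libraries were found in both groups. The log2 fold change was 0.17 (edgeR, SE 0.19, 95% interval -0.28 to 0.61, adjusted p = 0.775), the narrowest interval of the 15. Its neighbour Hist2h2ac, an H2A gene that starts 239 bases away on the other strand, had 1 count in all 6 libraries.

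Hist3h2a (H2A, chr11:58954685-58956830, plus) and Hist3h2ba (H2B, chr11:58948920-58949533, plus) form the small Hist3 cluster. Hist3h2a was at 5.72, 7.95 and 5.04 CPM in controls and 5.60, 4.69 and 6.09 CPM in APAP+IBU libraries. Control 2 stood above the other 5 libraries, and the log2 fold change was -0.19 (edgeR, SE 0.24 and adjusted p = 0.79). Its exon overlaps an exon of Trim17 on the same strand, where reads can be left unassigned. Hist3h2ba was at 3.96, 2.17 and 1.66 CPM in controls and 2.15, 1.57 and 3.12 CPM in APAP+IBU libraries. Control 1 was highest and APAP+IBU 3 next, and the log2 fold change was -0.19 (edgeR, SE 0.40 and adjusted p = 0.878).

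Hist1h2bc, the H2B gene with neither end motif, was at 3.04, 2.25 and 1.24 CPM in controls and 1.54, 1.42 and 2.29 CPM in APAP+IBU libraries, a log2 fold change of -0.32 (edgeR, SE 0.38 and adjusted p = 0.784). The controls alone spanned a wider range than the difference between the group means. Hist1h4i (H4, chr13:22040636-22041362, minus) was at 1.94, 0.669 and 1.47 CPM in controls and 0.946, 1.72 and 2.76 CPM in APAP+IBU libraries. Its libraries overlapped, with a log2 fold change of 0.40 (edgeR, SE 0.50 and adjusted p = 0.79). The plot of the 6 genes by library shows the overlap of the groups in each panel.

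**Figure D2:**
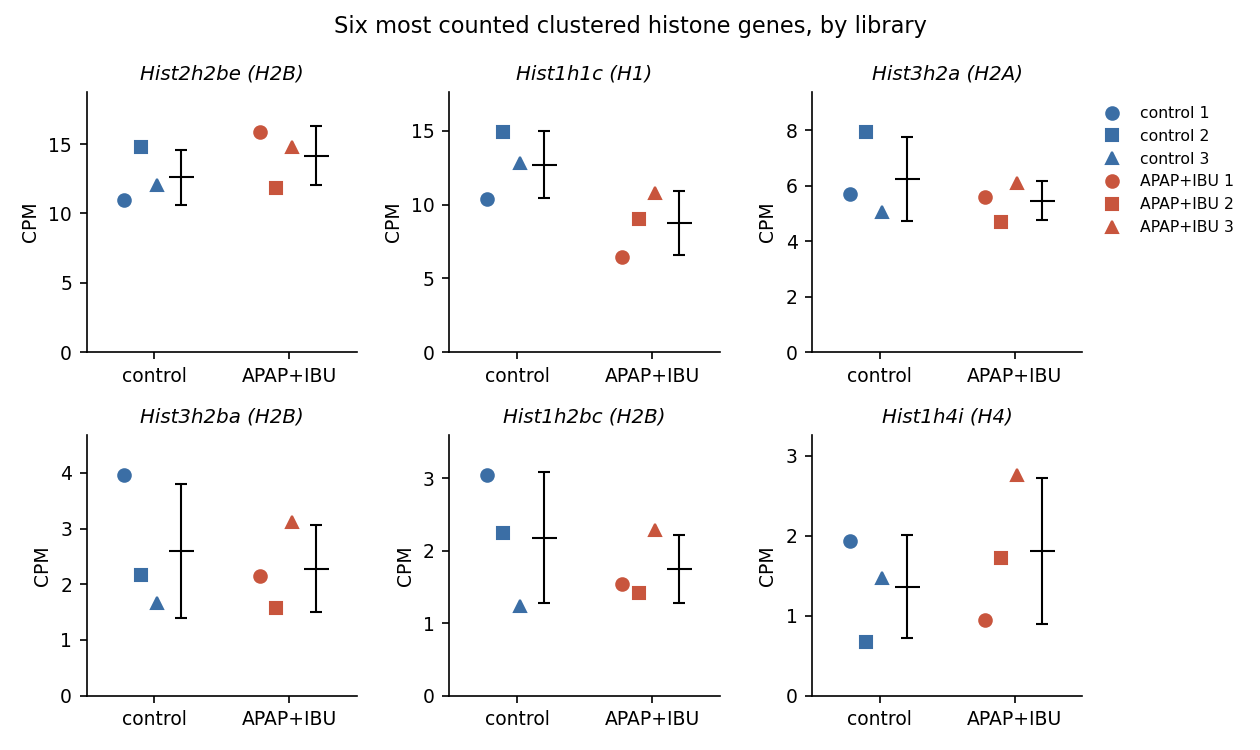
Level (CPM with TMM normalisation, linear axis from 0) of the 6 clustered histone genes with the most counts in each of the 3 control (blue) and 3 APAP+IBU (red) libraries. The bar beside each group is the mean ± SD (n = 3), and in Hist1h1c the control libraries lie at 10.4 to 14.9 CPM and the exposed ones at 6.43 to 10.8 CPM.

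The remaining tested genes had few reads and wide intervals. Hist1h3c, the only H3 gene tested, had 19, 11 and 4 counts in controls and 10, 1 and 18 counts in APAP+IBU libraries. Its log2 fold change of -0.38 had a 95% interval from -2.44 to 1.67. Hist1h4d, whose stem-loop is shown above, had 29, 22 and 1 counts in controls and 10, 11 and 16 counts after exposure. Control 3 alone was far below the others, and the log2 fold change went from -0.68 with all libraries to -1.60 with replicates 1 and 2 (edgeR, adjusted p = 0.0514), the smallest adjusted p of any clustered histone gene in any fit. The log2 fold changes of Hist1h2bk, Hist1h2bj, Hist1h2be, Hist1h2ae and Hist4h4 lay between -0.58 and 0.49.

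**Figure D3:**
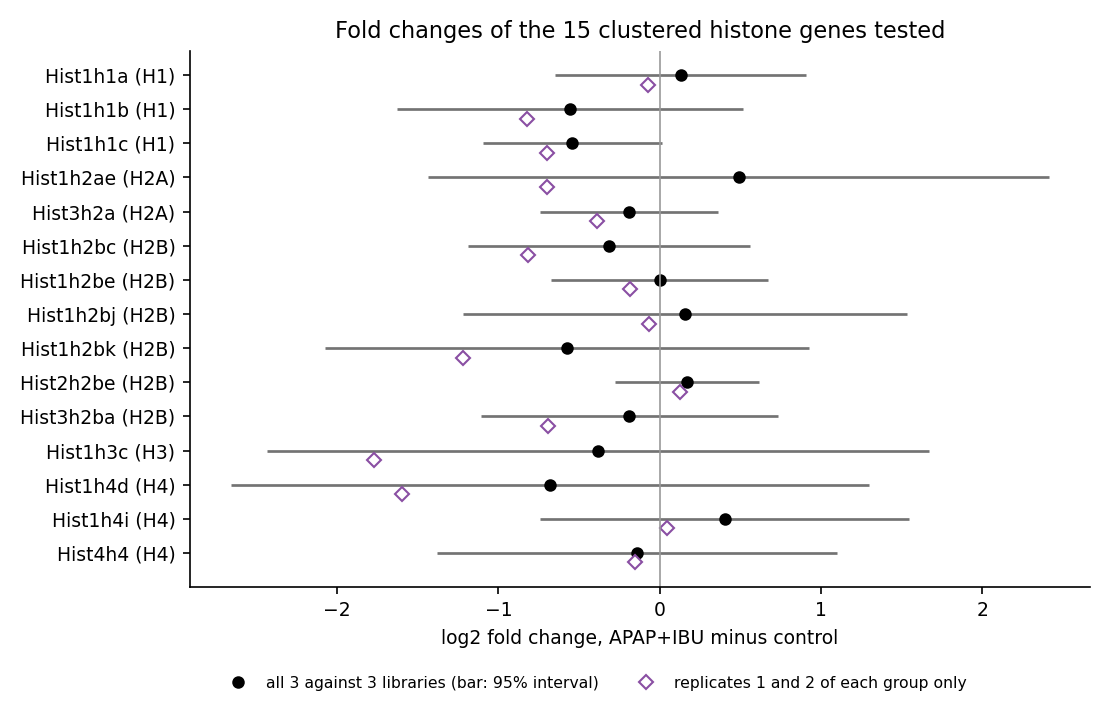
Log2 fold change (APAP+IBU minus control) of the 15 clustered histone genes that passed the filter on low counts, with all 6 libraries (black points, bars are 95% intervals) and with replicates 1 and 2 of each group only (open diamonds, no interval drawn). Each of the 15 intervals includes 0, and 13 of the 15 diamonds lie below 0.

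Several genes among the highest of their type per kilobase had their highest count in control 1. Hist1h2ag, whose annotated transcript ends soon after its stem-loop, had 18, 5 and 4 counts in controls and 2, 4 and 5 counts after exposure. Hist1h2ai (H2A) had 15, 3 and 0 against 4, 6 and 5 counts, and Hist1h4b (H4) had 19, 4 and 2 against 1, 4 and 6. The same held for Hist1h3h (H3), with 9, 5 and 0 against 2, 3 and 2 counts. Hist1h3a and Hist1h4k showed no such excess, with 6, 6 and 3 against 5, 5 and 5 counts for Hist1h3a and 6, 1 and 2 against 7, 5 and 7 for Hist1h4k.

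The same library stood out over the whole class without a poly(A) signal. The 48 genes summed to 14.1 CPM in control 1, and to 7.90 and 4.08 CPM in controls 2 and 3 and 5.54, 6.49 and 8.46 CPM in APAP+IBU 1, 2 and 3. The 17 genes with the signal did not show this, at 35.2, 42.5 and 34.8 CPM in controls and 32.8, 30.6 and 40.2 CPM after exposure. Among genes with at least 10 counts, control 1 was the highest library in 22 of 37 without the signal (59.5%), in 4 of 14 with it (28.6%) and in 28.4% of all genes. The ratio of exposed to control for the class without the signal was 0.787 and became 1.14 without control 1.

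Other RNAs that end without a poly(A) tail were measured beside them. The 11 genes listed (RNase MRP and RNase P RNAs, Y RNAs, 7SL and 7SK RNAs, the telomerase RNA and small nuclear or Cajal body RNAs) summed to 5.01 CPM in control 1, 0.750 and 0.599 CPM in controls 2 and 3, and 0.710, 1.11 and 0.937 CPM in APAP+IBU 1, 2 and 3. Rmrp, the RNA of RNase MRP, was at 1.89 CPM in control 1 and at 0.0197 to 0.175 CPM elsewhere, and Rny1, a Y RNA, at 1.15 CPM against 0.0691 to 0.218 CPM. Control 1 was the highest library for 6 of the 8 such genes with at least 10 counts (75%). None of the 11 passed the filter on low counts in the fit of all 6 libraries. Control 1 thus held the most reads of both kinds of RNA, but its excess was not particular to them. H3f3b, a replacement histone with a polyadenylated message, was at 852 CPM in control 1 and 574 to 706 CPM elsewhere. H1fx, a replacement linker histone, was at 49.3 CPM against 6.22 to 21.2 CPM. The replacement histones H2afv and Cenpa were highest in control 2 and APAP+IBU 3 instead. The part of tail-less RNA in the histone values was not tested.

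**Figure D4:**
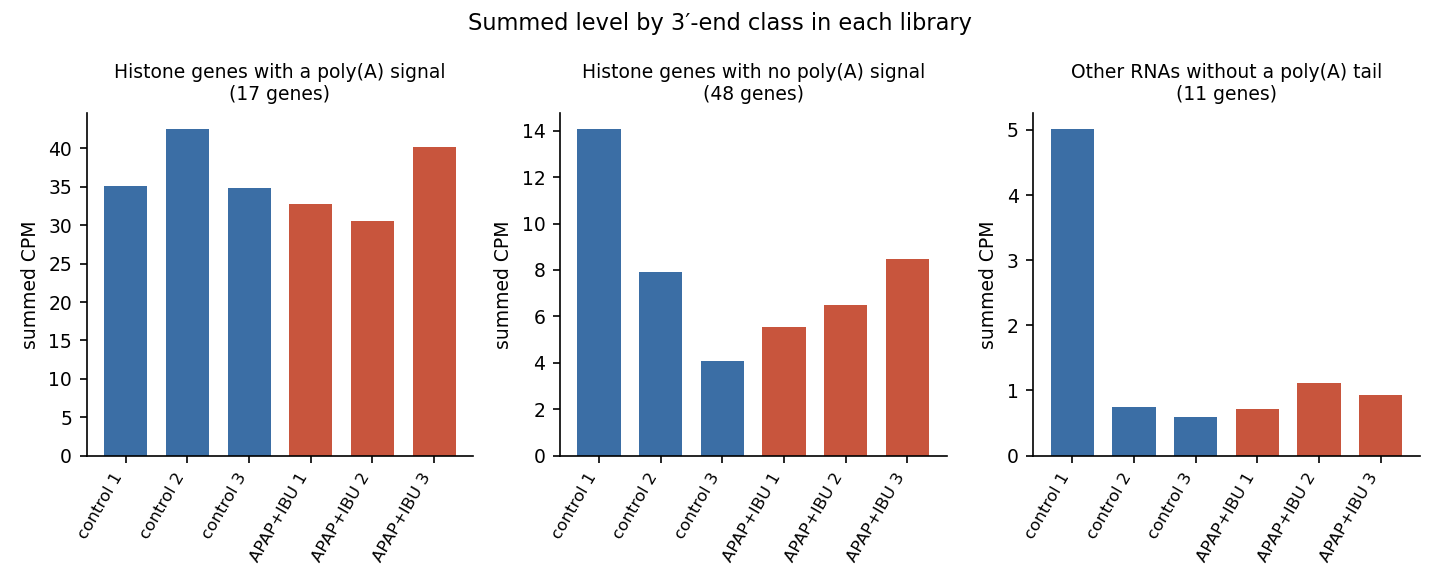
Summed level (CPM, linear axes from 0 with a scale of their own) in each library of the clustered histone genes with a poly(A) signal in the last 40 bases, of those without it, and of 11 other RNAs that end without a poly(A) tail. Control 1 is the highest bar at 14.1 CPM in the middle panel and at 5.01 CPM in the right panel, but not in the left panel, where control 2 is highest at 42.5 CPM.

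The testis variants were close to the limit of detection. Hist1h1t encodes the linker histone of spermatocytes, and Hist1h2aa and Hist1h2ba encode the testis forms of H2A and H2B, which are laid down during male germ cell development. Hist1h1t had 2, 5 and 4 counts in controls and 1, 5 and 3 counts in APAP+IBU libraries. Hist1h2ba had 1, 0 and 3 counts in controls and 3, 2 and 1 after exposure, and Hist1h2aa had 1 count in control 2 and 1 in APAP+IBU 1. Summed, the 3 genes were at 0.134 ± 0.0475 CPM in control and 0.119 ± 0.0299 CPM in APAP+IBU (SD, n = 3), and the groups overlapped. None was tested.

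The RNAs of spermatids in the same libraries are set beside them. Prm1, which encodes a protamine that replaces histones in sperm chromatin, was at 35.9, 7.66 and 5.71 CPM in controls and 0.789, 0.197 and 0.260 CPM after exposure. Of the 16 spermatocyte and spermatid markers, 11 were lower at an unadjusted p under 0.05 (3.21% of all tested genes were), and edgeR called 0 at an adjusted p under 0.05, while DESeq2 gave 11 lower at an adjusted p under 0.05 (0.858% of all tested genes). Hils1 and H1fnt, linker histone genes of elongating spermatids that lie outside the clusters, went with them. Hils1 was at 1.47, 0.776 and 0.875 CPM in controls and 0.118, 0.175 and 0.104 CPM after exposure, a log2 fold change of -2.94 (edgeR, SE 0.44 and adjusted p = 0.0906). H1fnt was at 2.89, 0.830 and 0.507 CPM against 0.138, 0.0437 and 0.156 CPM, a log2 fold change of -3.62 (edgeR, SE 0.79 and adjusted p = 0.238). In both genes each control library was above each APAP+IBU library, a pattern seen in 5.92% of all tested genes. No test compared them with the testis variants of the clusters.

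The most abundant replacement histones were measured at higher levels than the clustered genes of their type. Per kilobase of exon, H3f3b was at 193 to 286 CPM over the 6 libraries and H3f3a at 91.0 to 138 CPM, whereas the 12 clustered H3 genes together were at 0.555 to 2.43 CPM. The ratio of the means was 152 for H3f3b and 74.7 for H3f3a. H2afz, an H2A variant found at gene promoters, was at 75.9 ± 19.3 CPM per kb (SD over the 6 libraries), against 4.51 ± 1.45 CPM per kb for the 18 clustered H2A genes together, a ratio of 16.8. H1f0, the H1 of cells that divide slowly or have differentiated, was at 152 ± 13.6 CPM per kb, against 8.54 ± 1.91 CPM per kb for the clustered H1 genes, a ratio of 17.8. This was not so for each replacement gene. H1fx, another linker histone, had a ratio of the means of 1.88, and in single libraries its ratio to the clustered H1 sum ran from 0.542 to 4.55. H2afj, an H2A variant, was at a mean of 3.49 CPM per kb, below the clustered H2A sum, and Hils1, H1fnt and the oocyte linker histone H1foo were at 0.679, 0.581 and 0.0688 CPM per kb. In an oligo-dT selected library such ratios compare polyadenylated RNA and not all histone messages. The clustered H1 sum was also the only type in which the groups did not overlap per kilobase. It was at 8.90 to 11.2 CPM per kb in control and 5.47 to 8.65 CPM per kb in APAP+IBU libraries. Hist1h1c made up most of this sum but overlapped by itself, with APAP+IBU 3 (6.91 CPM per kb) above control 1 (6.66). Hist1h1a and Hist1h1b added 1.38 and 0.635 CPM per kb in control 1, and 1.19 and 0.350 in APAP+IBU 3. Among single tested genes, 5.92% had every APAP+IBU library below every control library. Without the division by length, the H1 sum of APAP+IBU 3 (12.44 CPM) lay just above that of control 1 (12.38 CPM). H2B has no replacement gene in the list, and its clustered genes summed to 15.1 ± 4.00 CPM per kb.

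**Figure D5:**
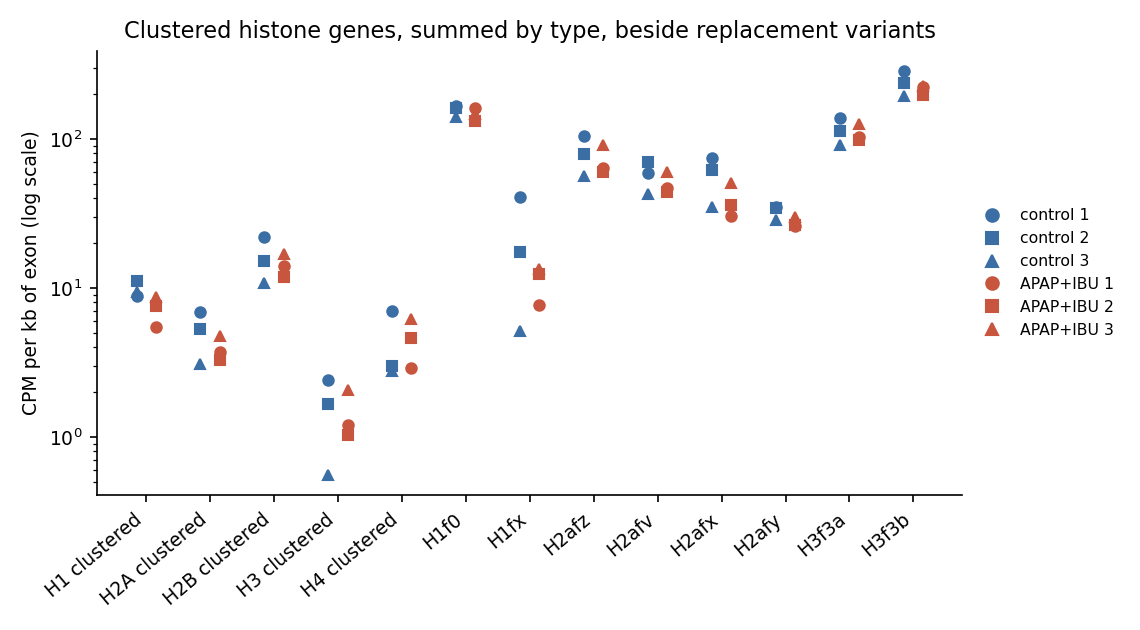
Level per kilobase of exon (CPM per kb, log scale) in each library of the clustered genes summed by histone type and of 8 replacement histone genes, control in blue and APAP+IBU in red. H3f3b lies at 193 to 286 CPM per kb and the summed clustered H3 genes at 0.555 to 2.43 CPM per kb, and the groups overlap in the clustered sums except for H1, at 8.90 to 11.2 CPM per kb in control and 5.47 to 8.65 CPM per kb in APAP+IBU libraries.

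Of the 13 replacement histones tested, 13 had a log2 fold change below 0 with a median of -0.19, beside -0.0047 over all tested genes. Summed over the 17 genes listed, the ratio of exposed to control was 0.902 and became 0.984 without control 1. Of the 13 tested, edgeR called 0 at an adjusted p under 0.05. Those past an unadjusted p of 0.05 were Hils1 and H1fnt, both lower, as were 3.21% of all tested genes. DESeq2 called the same 2 genes lower at an adjusted p under 0.05, against 0.858% of all tested genes. The 4 with the highest CPM were H3f3b (log2 fold change -0.15), H3f3a (-0.063), H1f0 (-0.078) and H2afy, a macroH2A gene (-0.26). With replicates 1 and 2 alone, 8 of 13 were lower at an adjusted p under 0.05 (12.9% of all tested genes were) and 0 higher, H2afx among them with a log2 fold change of -1.02 (edgeR, adjusted p = 0.00623). With the length and GC correction of these 4 libraries, 7 were lower (8.23% of all tested genes), and H2afx was at -0.34 (edgeR, adjusted p = 0.0477). H2afx encodes the H2A variant that is phosphorylated at DNA breaks. Its level was 103, 85.8 and 48.5 CPM in controls and 42.3, 49.8 and 70.1 CPM in APAP+IBU libraries, so that replicate 3 ran the other way. Its log2 fold change with all 6 libraries was -0.55 (edgeR, SE 0.29 and adjusted p = 0.692).

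The machinery that makes and matures clustered histone messages was well expressed. All 19 listed genes with a row were tested, 9 had a log2 fold change above 0 and 10 below, with a median of -0.0035. In edgeR's test 0 passed at an adjusted p under 0.05 or at an unadjusted p under 0.05. Every APAP+IBU library lay below every control library in 2 of the 19 (5.92% of all tested genes) and above in 0 (4.78%). Npat, the coactivator of histone gene transcription, was at 57.9, 72.5 and 116 CPM in controls and 138, 146 and 94.2 CPM in APAP+IBU libraries. Casp8ap2 encodes FLASH, which acts in histone locus bodies and in 3′-end cleavage, and had 61.8, 75.3 and 131 CPM in controls and 143, 148 and 98.9 CPM after exposure. In both genes replicates 1 and 2 were higher after exposure and replicate 3 was lower. With all 6 libraries the log2 fold changes were 0.62 for Npat (edgeR, SE 0.27 and adjusted p = 0.692) and 0.54 for Casp8ap2 (edgeR, SE 0.29 and adjusted p = 0.692).

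With replicates 1 and 2 alone, Npat was higher by 1.14 and Casp8ap2 by 1.11 on the log2 scale (edgeR, adjusted p = 0.00623 for each), and 7 of the 19 machinery genes were called higher (14.2% of all tested genes) and 1 lower (12.9%). After correction of those 4 libraries for gene length and GC content, 2 were called higher, which were Npat (0.65 by edgeR, adjusted p = 0.0111) and Casp8ap2 (0.64 by edgeR, adjusted p = 0.0109), against 5.68% of all tested genes, and 2 lower, which were Slbp and Cpsf3, against 8.23%. Slbp, whose protein binds the stem-loop, was at 225, 200 and 204 CPM in controls and 186, 191 and 206 CPM in APAP+IBU libraries, a log2 fold change of -0.11 (edgeR, SE 0.12 and adjusted p = 0.76). Lsm11, a component of the U7 particle, differed little between libraries, at 27.2 to 29.5 CPM in controls and 29.0 to 30.3 CPM after exposure. The other machinery genes with the highest CPM, Sympk, Cstf2 and Srrt, had log2 fold changes of -0.032, 0.27 and -0.12.

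Genes that act when histones are needed were read in the same way. Of 29 S phase genes, 4 had a log2 fold change above 0 and 25 below. Their median was -0.13, beside -0.0047 over all tested genes, and edgeR called 0 at an adjusted p under 0.05. At an unadjusted p under 0.05 there was 1 higher, Ccne2, a cyclin of the start of S phase, against 3% of all tested genes. The 4 with the highest CPM were Mcm6, Mcm5 and Mcm7 of the replicative helicase and the DNA ligase Lig1, with log2 fold changes of -0.33, -0.17, -0.25 and -0.22. Replicates 1 and 2 alone gave 11 called lower (12.9% of all tested genes were) and 3 higher (14.2%), and with the length and GC correction of these libraries 5 lower (8.23%) and 0 higher (5.68%). Of 22 histone chaperones, which carry histones to and from chromatin, 5 had a log2 fold change above 0 and 17 below. Their median was -0.082, and 0 had an adjusted p under 0.05. Every APAP+IBU library lay below every control library in 6 of the 22 (5.92% of all tested genes) and above in 0 (4.78%). The chaperones with the highest CPM, Npm1, Supt16, Nasp and Nap1l1, had log2 fold changes of -0.12, -0.21, -0.031 and -0.27. At an unadjusted p under 0.05 there was 1 lower chaperone, Ssrp1, a subunit of FACT, at -0.37, and 3.21% of all tested genes were lower at that threshold. Replicates 1 and 2 alone gave 2 chaperones called higher (14.2% of all tested genes) and 2 lower (12.9%), and 0 higher (5.68%) and 6 lower (8.23%) with the length and GC correction.

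Near-identical gene copies limited what could be counted. In 19 of the 65 genes fewer than 20% of 50-base windows were unique, and these genes had 212 counts in all, among them the 6 genes at 0. Hist2h2aa1, Hist2h2aa2, Hist2h3c1, Hist2h3b and Hist2h2bb had no unique window. Reads from such genes could belong to another copy, and the handling of reads with several matches is not given in the sources used here. Of the 18 H2A genes, 17 overlap a small predicted miRNA gene on the opposite strand in the later annotation, and these are listed in the table too. Without the strand setting of the counting, reads of the 2 strands cannot be told apart there. Exons of Hist1h2be and Hist1h1e overlap each other and Gm11398 on the same strand, where reads can likewise be left unassigned.

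Many H2A and H2B genes lie head to head and start within 1000 bases of each other. In 12 such pairs the starts were 176 to 306 bases apart. The H2B gene had more counts in 7 pairs, the H2A gene in 4, and 1 pair was equal at 0. By difference in counts, the most unequal pairs had 1 count for Hist2h2ac beside 3408 for Hist2h2be and 12 for Hist1h2ac beside 485 for Hist1h2bc. By cluster, the 52 Hist1 genes on chromosome 13 had 5314 counts, the 10 Hist2 genes on chromosome 3 had 3511, the 2 Hist3 genes on chromosome 11 had 2072 and Hist4h4 on chromosome 6 had 60.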

How the data were processed

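The members and gene lists were chosen with earlier results of these data known. The authors selected polyadenylated RNA (TruSeq Stranded mRNA kit), sequenced paired 50-base reads, mapped them to mm10 with TopHat 2.0.14 and Bowtie 2.1.0, counted them with HTSeq 0.6.1 on Ensembl release 86 and deposited raw read counts per gene. The strand setting and the treatment of reads with several matches are not given in the sources used here. Titles of the exposed samples name ibuprofen alone, their exposure label both drugs, and they were treated as APAP+IBU.

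From these counts, edgeR 4.0.16 (R 4.3.3; TMM, its expression filter, quasi-likelihood test, Benjamini-Hochberg adjustment) was fitted to all genes, and DESeq2 1.42.0 was the alternative. Of 48709 genes, 20167 passed the filter. Both programs were run on simulated counts with the same spread set for every gene. That run does not give the power for genes with few counts in these libraries. Levels are CPM. The correction for length and GC content was a loess fit (span 0.3). Sequences, lengths and positions were taken from GENCODE M21, a later annotation of the same assembly (GRCm38, or mm10), in which 48349 identifiers were found. A gene's length was the union of its exons. Library pairs of each group differed by more than sampling noise (chi-square per degree of freedom 18.8 to 158), so none was a duplicate. Each library came from its own pool of gonads, and the p-values measure the spread between these pools.

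Named clustered genes were the testis variants, the 3 of each type with the highest mean CPM per kb and any that passed a threshold, and in the other lists the 4 with the highest CPM with Slbp, Npat, Casp8ap2 and Lsm11. Other genes named were chosen after their values were seen.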

Additional observations from a re-analysis of the deposited data

How the results depend on the processing

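Counts of 0 clustered histone genes at an adjusted p under 0.05 held in each alternative run (DESeq2, other scalings and filters, the replicate block, the length and GC correction, replicates 1 and 2 only, and each library left out). At an unadjusted p under 0.05 the count of 0 became 1 with DESeq2, with upper quartile scaling and with the replicate block (Hist1h1c each time), 1 with replicates 1 and 2 and the length and GC correction (Hist1h4d), 2 with all genes of at least 1 count (Hist1h1c and Hist1h3e) and 4 with replicates 1 and 2 only (Hist1h1c, Hist1h2bc, Hist1h2bl and Hist1h4d), and ran from 0 to 2 with a library left out (Hist1h1c without APAP+IBU replicate 3 or control replicate 1, Hist1h4d and Hist1h2bl without control replicate 3). The median log2 fold change of the tested clustered genes, -0.19, was -0.70 with replicates 1 and 2 only (-0.35 with the length and GC correction), -0.074 with this correction of all 6 libraries (-0.097 with the replicate block added) and -0.10 with at least 10 counts in every library, and ran from -0.43 to 0.078 with a library left out, above 0 without control replicate 1.

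Over all genes, 0 were called, against 192 with DESeq2, 120 with all genes of at least 1 count, 5607 with replicates 1 and 2 only and 2870 with the length and GC correction added to these. Libraries with the same replicate number did not deviate together over all tested genes (correlations of deviations -0.069, -0.015 and -0.044). The liver markers were high in replicate 3 of both groups, so whether the libraries form pairs was not settled. The replicate block gave 2 genes, or 34 with the length and GC correction. With a library left out the count ran from 0 to 1064, the highest without control replicate 3. The fit to replicates 1 and 2 with the correction was added after the data had been seen.

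Directions of 9 named clustered genes changed in 11 of 151 gene and alternative pairs. Hist3h2ba was at 0.12 with the length and GC correction, with and without the replicate block, and Hist1h1a at -0.075 with replicates 1 and 2 only. With a library left out, the range was -0.071 to 0.37 for Hist1h1a, -0.60 to 0.0016 for Hist1h2bc, -1.39 to 0.23 for Hist1h3c, -0.056 to 0.74 for Hist1h4i, -0.32 to 0.021 for Hist3h2a and -0.50 to 0.25 for Hist3h2ba. Among the other genes named, H1f0 was at 0.059 with the length and GC correction, 0.052 with the replicate block added and 0.12 with replicates 1 and 2 and the correction, Nasp at 0.10 with replicates 1 and 2 only and 0.0033 with total counts, and Sympk at 0.0060 with total counts. With a library left out, H3f3a ran from -0.21 to 0.095, H3f3b from -0.28 to 0.0045, Nasp from -0.077 to 0.029 and Sympk from -0.19 to 0.12. The cause of these changes was not tested. Of the 65 clustered genes, 15 were tested in the fit of all 6 libraries. The 36 with under 10 counts in each library were among those left out.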

Other observations

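Histone genes that the rule leaves out because they are annotated as pseudogenes were also near the limit of detection. Hist1h2al had 6, 7 and 0 counts in controls and 0, 1 and 2 in APAP+IBU libraries, Hist1h2aj had 2, 3 and 3 against 2, 0 and 3, and Hist3h2bb-ps had 0, 6 and 1 against 0, 0 and 1. No test was run on them.

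H1fx, a replacement linker histone outside the clusters, varied widely between libraries, at 40.5, 17.4 and 5.11 CPM per kb in controls and 7.65, 12.5 and 13.3 CPM per kb in APAP+IBU libraries. Control 1 was the highest and control 3 the lowest of the 6 libraries.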
